A study of Mus musculus with 42 samples.

Results

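The genes described here are 51 genes that type I interferons induce, followed in Foxp3-expressing regulatory T cells (Treg) and the remaining, conventional CD4+ T cells (Tconv) of mice that overexpress tumour necrosis factor. The members were chosen by name, as a list of classical interferon-induced genes, and were found in the deposited count table by the Ensembl ID that maps to each symbol. All 51 of the 51 members were found among 46603 genes. Of these, 50 had enough reads to be tested in the lymph nodes and the ileum and 48 in the synovium, and Oas1g was tested in none of the main comparisons.

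The data are bulk RNA-seq of sorted cells, with 42 libraries in 16 groups. TNFdARE mice carry a Tnf allele whose transcript lacks its AU-rich element, and the controls were littermates with the wild-type allele (WT). Mice of both genotypes also carried DEREG, a bacterial artificial chromosome transgene with a GFP reporter under Foxp3 control, so GFP-positive cells were sorted as Treg and GFP-negative CD4+ cells as Tconv. Cells came from the ileum, the mesenteric lymph node, the synovium of the ankle, and the pooled inguinal and popliteal lymph nodes, called the joint nodes below. The labels name experiments A, B and C, and a group has 1 library per experiment: all 3 in most groups, B and C in the TNFdARE groups of the mesenteric node, A and B in WT synovial Treg and TNFdARE synovial Tconv, and A alone in WT synovial Tconv. The age of the mice and the number of mice per library are not stated in the sources used here, and the p-values measure the spread between these libraries only. Values in every library are given below in the order A, B, C. Most genes shown so were picked for their small p-value in the comparison at hand, which favours groups that do not overlap. The share of all genes without overlap was not counted for any comparison, so a lack of overlap adds no support to a call.

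Type I interferons (the interferon alphas and interferon beta) bind a receptor made of Ifnar1 and Ifnar2, and the kinases Jak1 and Tyk2 then activate transcription factors, among them Stat2. A complex that holds Stat2 and Irf9 binds interferon-stimulated response elements in promoters and switches on genes that block viral entry, translation and replication. T cells in lymphoid tissue of unchallenged mice carry a tonic level of these transcripts, and Usp18 and Isg15 are both induced genes and regulators of the pathway.

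The members form 9 groups by role. Stat2, Irf9, Irf7, Usp18 and Isg15 act in signalling and feedback. The 4 IFIT genes, whose proteins bind viral RNA, lie together on chromosome 19 between 34550694 and 34650009 (GRCm38). The OAS genes encode synthetases and related proteins that act in RNA decay and lie on chromosome 5, Oas1a, Oas1g, Oas2 and Oas3 between 120730333 and 120907521 and Oasl1 and Oasl2 between 114896936 and 114937915. Ifih1, Dhx58, Zbp1 and Eif2ak2 sense foreign nucleic acid. The 7 p200 genes (Ifi203, Ifi204, Ifi206, Ifi208, Ifi209, Ifi213 and Ifi214), a family of nucleic-acid-binding proteins, lie on chromosome 1 between 173468485 and 173942672. The remaining groups are 11 antiviral effectors (among them Rsad2, Mx1, Rtp4 and Ifi27l2a), 6 ubiquitin and ADP-ribose enzymes (Herc6, Trim30a, Trim30d, Parp9, Parp14 and Dtx3l), 3 Schlafen genes (Slfn1, Slfn5 and Slfn8) on chromosome 11 between 82951349 and 83122670, and 5 nuclear and other proteins (Sp100, Daxx, Phf11b, Helz2 and Lgals3bp). The members of the IFIT, OAS, p200 and Trim30 families have near copies, Parp9 and Dtx3l overlap on opposite strands, and Dhx58, Slfn5, Ifi35 and Oasl1 overlap antisense genes. Irf7, Usp18 and Eif2ak2 also share exon bases with genes on the other strand. Irf9, Ifi203, Rtp4, Parp14, Herc6 and Sp100 share exon bases with genes on their own strand. Whether the authors counted by strand is not stated in the sources used here, and reads may be split or shared within these pairs.

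Promoter stretches of 9 members are shown because they hold the core letters of the interferon-stimulated response element, GAAANNGAAA, which reads TTTCNNTTTC on the other strand. Both strands of the window from 250 bases before to 50 bases after each RefSeq start (GRCm38.p6) were searched, and overlapping matches were counted. Counting a gene once however many starts it has, a match was present in 1079 of 27025 genes (3.99%) and in 22 of the 41 members with a promoter in the RefSeq table (53.7%). The table holds none for Usp18, Oas2, Mx1, Rtp4, Ifi27l2a, Dhx58, Zbp1, Parp9, Parp14 and Ifi204. The 80-base stretches are written 5′ to 3′ on the gene's own strand, with the matched letters in capitals. They lie at chr19:34640759-34640838 (Ifit1, plus strand), chr19:34583355-34583434 (Ifit3, plus), chr19:34607751-34607830 (Ifit3b, plus), chr4:156200846-156200925 (Isg15, minus), chr12:26456528-26456607 (Rsad2, minus), chr1:173599301-173599380 (Ifi213, minus), chr1:173535992-173536071 (Ifi214, minus), chr1:173491319-173491398 (Ifi206, minus) and chr7:104507850-104507929 (Trim30d, minus).
Ifit1: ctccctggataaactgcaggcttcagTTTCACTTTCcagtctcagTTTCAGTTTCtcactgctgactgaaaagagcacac
Ifit3: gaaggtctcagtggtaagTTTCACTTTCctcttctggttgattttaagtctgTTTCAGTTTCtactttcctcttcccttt
Ifit3b: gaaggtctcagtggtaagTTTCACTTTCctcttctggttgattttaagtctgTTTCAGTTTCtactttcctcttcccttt
Isg15: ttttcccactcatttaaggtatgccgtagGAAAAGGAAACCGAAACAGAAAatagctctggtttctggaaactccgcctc
Rsad2: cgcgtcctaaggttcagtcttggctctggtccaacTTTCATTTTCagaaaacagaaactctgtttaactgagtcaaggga
Ifi213: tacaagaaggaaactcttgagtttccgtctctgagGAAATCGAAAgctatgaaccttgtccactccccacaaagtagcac
Ifi214: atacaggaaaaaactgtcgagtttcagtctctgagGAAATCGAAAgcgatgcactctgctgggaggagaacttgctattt
Ifi206: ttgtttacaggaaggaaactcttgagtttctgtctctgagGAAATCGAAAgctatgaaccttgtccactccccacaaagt
Trim30d: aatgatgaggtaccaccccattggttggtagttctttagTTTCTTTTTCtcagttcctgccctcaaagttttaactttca
The stretches of Ifit3 and Ifit3b are identical over all 80 bases. Isg15 holds 3 overlapping matches, and Ifi206, Ifi213 and Ifi214 carry the same 10 matched letters. Trim30d is shown because it has a match and passed in none of the node comparisons below.

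Library depth was 18261064 to 30301202 counts. Foxp3, which drives the reporter used for the sort, measured 566 CPM (counts scaled to the size of the library) in the lowest Treg library, WT synovium B, and 1645 CPM in the highest, TNFdARE ileum B. The 2 TNFdARE synovial Tconv libraries had 619 and 616 CPM, above that lowest Treg library, and WT synovial Tconv had 31.1 CPM. At the other sites Foxp3 was also higher in TNFdARE than in WT Tconv, with means of 28.99 and 6.597 CPM in the mesenteric node, 34.8 and 6.79 CPM in the joint nodes and 146 and 16.2 CPM in the ileum. Tnf, whose transcript the allele alters, in Treg of the mesenteric node measured 40.6, 44.5 and 28.1 CPM in WT and 107 and 57.3 CPM in TNFdARE (log2 fold change 1.17, adjusted p = 0.031), and its TNFdARE mean was above the WT mean in the other 6 comparisons of the genotypes without passing the test. The T-cell markers Cd3d, Cd3e, Cd3g, Cd4, Trac and Lck were present in every library, with sums from 3090 CPM in WT synovial Treg to 7428 CPM in WT joint-node Tconv.

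The level of the members was highest in WT cells of the mesenteric node and lowest in the synovium. A score, the mean log2 CPM of the 51 members, was 6.66 ± 0.32 (SD, n = 3) in WT mesenteric Tconv, 6.51 ± 0.35 (n = 3) in WT mesenteric Treg, 5.73 ± 0.27 (n = 3) in WT joint-node Tconv and 5.67 ± 0.20 (n = 3) in WT joint-node Treg. It was 5.01 ± 0.25 (n = 3) in WT ileal Tconv and 4.92 ± 0.45 (n = 3) in WT ileal Treg. The WT synovium had 4.71 in the 1 Tconv library and 3.86 ± 0.24 (n = 2) in Treg. In TNFdARE mice the score was 5.32 ± 0.26 (n = 2) in mesenteric Tconv, 5.00 ± 0.07 (n = 2) in mesenteric Treg, 4.96 ± 0.06 (n = 3) in joint-node Tconv and 4.60 ± 0.09 (n = 3) in joint-node Treg. It was 4.56 ± 0.08 (n = 3) in ileal Treg, 4.33 ± 0.12 (n = 3) in ileal Tconv, 3.37 ± 0.30 (n = 2) in synovial Tconv and 2.99 ± 0.24 (n = 3) in synovial Treg. The WT score was above the TNFdARE score in each of the 8 pairs of groups, and the libraries of the 2 genotypes overlapped in ileal Treg only.

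In the order of the 16 groups, the 2 WT mesenteric groups overlapped each other and lay above all other groups, since their lowest library (6.11) was above the highest of the WT joint nodes (6.03). From the WT joint nodes down to WT ileal Treg each group overlapped its neighbour. The 1 WT synovial Tconv library (4.71) lay just above TNFdARE joint-node Treg (4.52 to 4.69). TNFdARE ileal Tconv (4.20 to 4.41) lay below TNFdARE ileal Treg (4.50 to 4.65). WT synovial Treg (3.68 to 4.03) followed, and the TNFdARE synovial groups were lowest and overlapped each other. For single members, the highest group mean belonged to a WT mesenteric group for 49 of 51 members and the lowest to a synovial group for 47. The exceptions at the top were Ifi204, highest in WT synovial Treg, and Oas1g, highest in WT ileal Treg. Per kilobase of exon, the most abundant members in WT mesenteric Treg were Ifi27l2a (1017 CPM per kb), Slfn1 (183), Ifi209 (139), Sp100 (121) and Bst2 (113), and the least abundant were Oas1g (0.0072), Ifi204 (0.177) and Ifi44 (2.54).

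**Figure D1:**
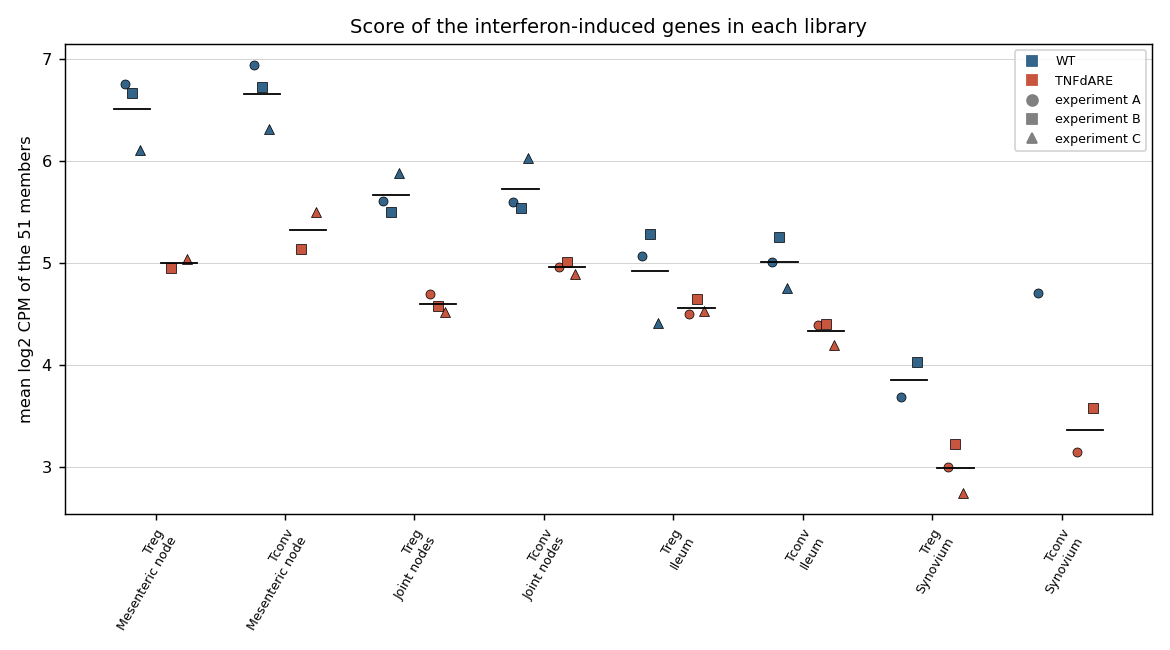
Score of the 51 members (mean log2 CPM, y axis) in each of the 42 libraries, by cell type and site (x axis), with WT in blue and TNFdARE in red, a marker shape for each experiment and a line at each group mean. The WT mesenteric groups stand at 6.11 to 6.94, and the TNFdARE synovial groups at 2.75 to 3.58.

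In mesenteric Treg, the interferon-induced genes were lower in TNFdARE than in WT mice. Of 50 tested, 39 fell and 0 rose, against 1.84% of all tested genes that fell and 3.84% that rose, and all 50 log2 fold changes were below 0. Their median log2 fold change was -1.03, beside 0.01 over all genes tested, and 24 of the 39 fell by at least a factor of 2. In bulk samples, fewer cells of a type and less RNA per cell cannot be told apart. The IFIT family had the largest median change by role, -3.37, with 4 of 4 lower. Ifit1, whose protein binds viral RNA that lacks the host cap, measured 296, 296 and 139.6 CPM in WT and 28.9 and 35.8 CPM in TNFdARE (7.26-fold lower, log2 fold change -2.86 ± 0.36, adjusted p = 0.00079). Its lowest WT library, C, was above both TNFdARE libraries. Ifit3, an Ifit1 partner, went from 149.7, 137 and 56.6 CPM in WT and 4.696 and 8.59 CPM in TNFdARE (16.7-fold lower, log2 fold change -4.06 ± 0.54, adjusted p = 0.0011), again with no overlap.

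Among the p200 genes, 6 of 7 were lower in mesenteric Treg. Ifi214 measured 99.8, 102 and 57.3 CPM in WT and 14.4 and 14.8 CPM in TNFdARE (5.69-fold lower, log2 fold change -2.51 ± 0.24, adjusted p = 0.00021). Ifi213 measured 157, 170.1 and 90.9 CPM in WT and 27.8 and 28.9 CPM in TNFdARE (log2 fold change -2.25 ± 0.26, adjusted p = 0.0005). Ifi206 measured 320.5, 309.7 and 197 CPM in WT and 73.5 and 80.8 CPM in TNFdARE (log2 fold change -1.78 ± 0.20, adjusted p = 0.00045). Ifi208 was at 276, 261 and 167 CPM in WT and 58.6 and 79.5 CPM in TNFdARE (log2 fold change -1.71 ± 0.21, adjusted p = 0.00074). None of these overlapped between genotypes, and WT library C was the lowest WT library for each of them. Slfn1, a Schlafen gene linked to T-cell quiescence, measured 338, 365 and 317 CPM in WT and 118 and 154 CPM in TNFdARE (log2 fold change -1.27 ± 0.12, adjusted p = 0.00021). Rtp4, a chaperone of G protein-coupled receptors, measured 165, 165 and 107 CPM in WT and 32.03 and 40.1 CPM in TNFdARE (log2 fold change -1.96 ± 0.22, adjusted p = 0.00046). Ifi27l2a, a small membrane protein, measured 512, 514 and 386 CPM in WT and 199.8 and 213 CPM in TNFdARE (log2 fold change -1.14 ± 0.13, adjusted p = 0.00047). These 3 genes also had every WT library above every TNFdARE library. The remaining roles had 5 of 5 signalling genes lower, 4 of 5 OAS genes, 3 of 4 sensors, 9 of 11 antiviral effectors, 3 of 3 Schlafen genes, 4 of 5 nuclear and other genes, and 1 of 6 ubiquitin and ADP-ribose enzymes. With 1 TNFdARE library left out the other is assumed to vary like the other groups: the count was 19 without TNFdARE B and 28 without TNFdARE C.

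In joint-node Treg the members were also lower in TNFdARE mice. There 40 of 50 members fell and 0 rose, against 2.34% of all genes that fell and 3.36% that rose, with a median of -0.74 beside -0.02 over all genes, and 18 of the 40 fell by at least a factor of 2. Ifi213 measured 83.1, 93.3 and 95.1 CPM in WT and 30.4, 27.3 and 23.8 CPM in TNFdARE (3.33-fold lower, log2 fold change -1.74 ± 0.10, adjusted p = 6.4e-07). Ifi206 measured 179.9, 156 and 184 CPM in WT and 83.2, 79.96 and 76.1 CPM in TNFdARE (log2 fold change -1.12 ± 0.09, adjusted p = 4.3e-06). Ifi214 measured 39.8, 45 and 48.6 CPM in WT and 12.5, 12.5 and 11.7 CPM in TNFdARE (log2 fold change -1.86 ± 0.15, adjusted p = 8.5e-06). In each of these p200 genes the TNFdARE libraries lay within a narrow band below all WT libraries. Usp18, the protease that removes Isg15 from proteins and also restrains receptor signalling, was at 82.6, 83.8 and 91.5 CPM in WT and 26.03, 26.6 and 30.6 CPM in TNFdARE (log2 fold change -1.64 ± 0.12, adjusted p = 3.8e-06). Zbp1, a sensor of left-handed nucleic acid, was at 172, 161 and 177 CPM in WT and 105, 104 and 97.3 CPM in TNFdARE (log2 fold change -0.74 ± 0.07, adjusted p = 4.1e-05). Both were lower in 3 of 3 TNFdARE libraries.

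The IFIT genes again had the largest median by role in joint-node Treg, -2.65, with 4 of 4 lower. Ifit3 measured 31.1, 29.7 and 43.1 CPM in WT and 6.12, 3.69 and 3.07 CPM in TNFdARE (8.05-fold lower, log2 fold change -3.01 ± 0.28, adjusted p = 2.9e-05). Ifit1 measured 70.3, 69.4 and 102 CPM in WT and 19.6, 17.2 and 12.7 CPM in TNFdARE (log2 fold change -2.29 ± 0.22, adjusted p = 3.2e-05). Ifit2, which has a later role in translation control and cell death, measured 73.3, 73.4 and 73.04 CPM in WT and 36.7, 42.7 and 36.3 CPM in TNFdARE (log2 fold change -0.93 ± 0.08, adjusted p = 1.5e-05). The WT values of Ifit2 differed by less than 1 CPM, and its decrease was the smallest of the 4 IFIT genes. By role, 5 of 5 signalling genes, 5 of 5 OAS genes, 3 of 4 sensors, 5 of 7 p200 genes, 10 of 11 antiviral effectors, 2 of 6 ubiquitin and ADP-ribose enzymes, 3 of 3 Schlafen genes and 3 of 5 nuclear and other genes were lower. The members lower in Treg of both nodes numbered 37, of 39 in the mesenteric node and 40 in the joint nodes. Of all 14820 genes tested in the mesenteric node at most 273 could be lower in both, the number lower in mesenteric Treg.

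Tconv of the mesenteric node had 33 of 50 members lower and 0 higher in TNFdARE mice, against 0.574% of all genes lower and 1.79% higher. The median was -1.06, beside 0.00 over all genes, and 25 of the 33 fell by at least a factor of 2. Ifi27l2a measured 317, 316 and 277 CPM in WT and 108 and 121 CPM in TNFdARE (log2 fold change -1.43 ± 0.13, adjusted p = 0.00015). Rtp4 measured 200.2, 212 and 143 CPM in WT and 52.3 and 65.7 CPM in TNFdARE (log2 fold change -1.68 ± 0.22, adjusted p = 0.0022). Ifi214 was at 122, 105 and 86.1 CPM in WT and 31.4 and 36.3 CPM in TNFdARE (log2 fold change -1.65 ± 0.23, adjusted p = 0.0026). No TNFdARE library reached a WT library in any of these. Ifit1 measured 371, 347 and 196 CPM in WT and 43.8 and 60.4 CPM in TNFdARE (log2 fold change -2.58 ± 0.35, adjusted p = 0.0026). Ifit3 measured 194, 155 and 72.9 CPM in WT and 8.23 and 13.2 CPM in TNFdARE (13.5-fold lower, log2 fold change -3.76 ± 0.52, adjusted p = 0.0026). WT library C was again the lowest of the WT libraries for both. Rsad2 (viperin), which makes a chain-terminating nucleotide, and Cmpk2, a mitochondrial nucleotide kinase, are neighbours on chromosome 12. Rsad2 measured 67.4, 55.6 and 26.1 CPM in WT and 2.67 and 4.63 CPM in TNFdARE (13.99-fold lower, log2 fold change -3.81 ± 0.55, adjusted p = 0.0033). Cmpk2 measured 113, 83.4 and 60.9 CPM in WT and 22.3 and 21.2 CPM in TNFdARE (log2 fold change -2.01 ± 0.28, adjusted p = 0.0031). Ifi44 was at 33.3, 23.6 and 18.7 CPM in WT and 0.212 and 2.41 CPM in TNFdARE (log2 fold change -4.34 ± 0.62, adjusted p = 0.0033), with TNFdARE B near 0. The count of lower members was 16 without TNFdARE B and 13 without TNFdARE C.

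In joint-node Tconv, 29 of 50 members were lower and 0 higher, against 0.504% of all genes lower and 2.29% higher, and the median was -0.44 beside 0.01 over all genes. Of the 29, 13 fell by at least a factor of 2. Ifit3 measured 33.1, 37.7 and 48.95 CPM in WT and 9.79, 5.65 and 5.16 CPM in TNFdARE (5.71-fold lower, log2 fold change -2.51 ± 0.27, adjusted p = 6.4e-05). Ifit3b, its near copy, measured 11.3, 10.2 and 15.7 CPM in WT and 2.45, 1.41 and 0.814 CPM in TNFdARE (log2 fold change -2.97 ± 0.39, adjusted p = 0.00036). Ifit1 measured 82.2, 84.2 and 138 CPM in WT and 35.02, 31.3 and 24.6 CPM in TNFdARE (log2 fold change -1.72 ± 0.21, adjusted p = 0.00018). In each of the 3 genes WT C was the highest library and no library overlapped between genotypes. Usp18 measured 60.4, 64.7 and 88.8 CPM in WT and 29.8, 29.4 and 36.4 CPM in TNFdARE (log2 fold change -1.14 ± 0.12, adjusted p = 6.4e-05). Rsad2 measured 6.66, 10.7 and 17.8 CPM in WT and 1.71, 1.61 and 1.43 CPM in TNFdARE (log2 fold change -2.85 ± 0.32, adjusted p = 8.3e-05). The TNFdARE libraries of Rsad2 were all below the lowest WT library, A. Ifi27l2a measured 142, 158 and 170.3 CPM in WT and 85.4, 95.02 and 69.4 CPM in TNFdARE (log2 fold change -0.91 ± 0.11, adjusted p = 0.00015). Ifi213 measured 131, 114 and 148 CPM in WT and 73.9, 69.8 and 74.8 CPM in TNFdARE (log2 fold change -0.83 ± 0.10, adjusted p = 0.00016). Oas1a, a synthetase whose product activates RNase L, measured 8.32, 7.26 and 10.8 CPM in WT and 2.54, 3.43 and 3.92 CPM in TNFdARE (log2 fold change -1.40 ± 0.18, adjusted p = 0.0003). All 8 of these genes, picked for their small adjusted p, were lower in 3 of 3 TNFdARE libraries. The libraries WT C and TNFdARE B of this group had the most genes detected, 31454 and 29599, and without both the count of lower members was 15.

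The 4 node comparisons share no library, but Treg and Tconv of a site share experiment letters and 1 fit, so the comparisons are not independent. Across them, 24 members were lower in all 4: Cmpk2, Ifi206, Ifi209, Ifi213, Ifi214, Ifi27l2a, Ifit1, Ifit3, Ifit3b, Irf7, Irf9, Isg15, Lgals3bp, Oas2, Oas3, Oasl1, Oasl2, Rsad2, Rtp4, Slfn1, Slfn5, Slfn8, Usp18 and Xaf1. Of all 14691 genes tested in the joint nodes at most 74 could be lower in all 4, the number lower in joint-node Tconv. A further 9 members were lower in 3 of the 4, 7 in 2 and 4 in 1. The 4 were Eif2ak2, the RNA-activated kinase PKR, lower in mesenteric Tconv (log2 fold change -0.94, adjusted p = 0.046), Herc6, the ligase that attaches Isg15, in joint-node Tconv (-0.40, adjusted p = 0.034), Ifi203 in mesenteric Treg (-0.50, adjusted p = 0.024) and Parp9 in joint-node Treg (-0.40, adjusted p = 0.014). The 7 that passed in none were Dtx3l, Ifi204, Ifi35, Oas1g, Parp14, Phf11b and Trim30d. Parp14, an ADP-ribose transferase, measured 232, 241 and 206 CPM in WT and 197 and 173 CPM in TNFdARE in mesenteric Treg and 137, 151 and 214 CPM in WT and 111, 143 and 137 CPM in TNFdARE in joint-node Treg. Its libraries overlapped between the genotypes in joint-node Treg and not in mesenteric Treg. In the 4 comparisons 0 members were higher by edgeR, 0 at an unadjusted p under 0.05 and 0 by DESeq2. The counts of lower members rest on a spread estimated within each site. With all 42 libraries in 1 fit, which shares its spread with the synovium, the lower members numbered 19 in mesenteric Treg, 6 in joint-node Treg, 9 in mesenteric Tconv and 2 in joint-node Tconv. Between cell types, 30 members were lower in both Treg and Tconv of the mesenteric node, of 39 and 33, and 28 in both of the joint nodes, of 40 and 29. Of all genes tested, at most 85 of 14820 and 74 of 14691 could be lower in both, the numbers lower in Tconv.

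By role, the ubiquitin and ADP-ribose enzymes had few calls: 1 of 6 in mesenteric Treg (Trim30a), 2 of 6 in joint-node Treg, 0 of 6 in mesenteric Tconv and 2 of 6 in joint-node Tconv, with medians of -0.42, -0.34, -0.58 and -0.17. The IFIT family had medians of -3.37, -2.65, -3.17 and -2.12 in the same order, and the OAS family -2.37, -1.28, -2.23 and -1.40. Members with and without the interferon-stimulated response element letters in the promoter window had these counts: in mesenteric Treg 17 of 21 with a match were lower (median -1.08) and 15 of 19 without (median -0.87). In joint-node Treg the counts were 17 of 21 (-0.81) and 15 of 19 (-0.63), in mesenteric Tconv 16 of 21 (-1.12) and 12 of 19 (-0.81), and in joint-node Tconv 13 of 21 (-0.53) and 11 of 19 (-0.40). A match is a description of the letters, and no test was made of it.

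**Figure D2:**
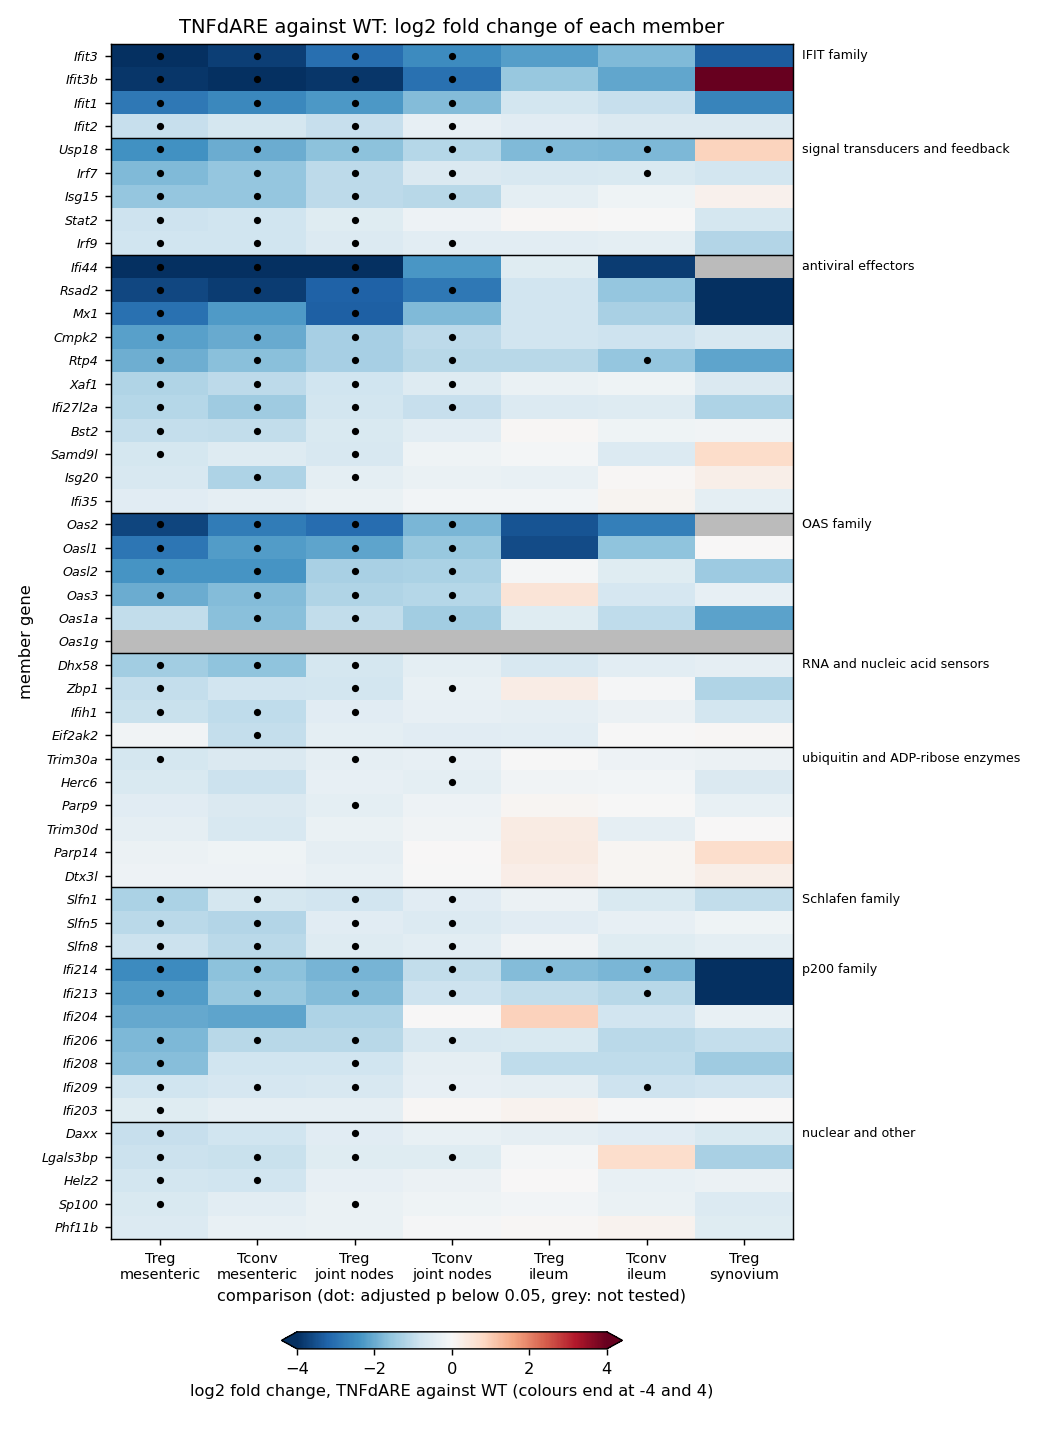
Log2 fold change of each member (rows, ordered by role) in TNFdARE against WT cells for 7 comparisons (columns), blue for lower and red for higher, with a dot where the adjusted p was below 0.05 and grey where the gene was not tested. The 4 node columns hold 29 to 40 dots each, all on lower values, against 2 and 6 in the ileum and 0 in the synovium.

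**Figure D3:**
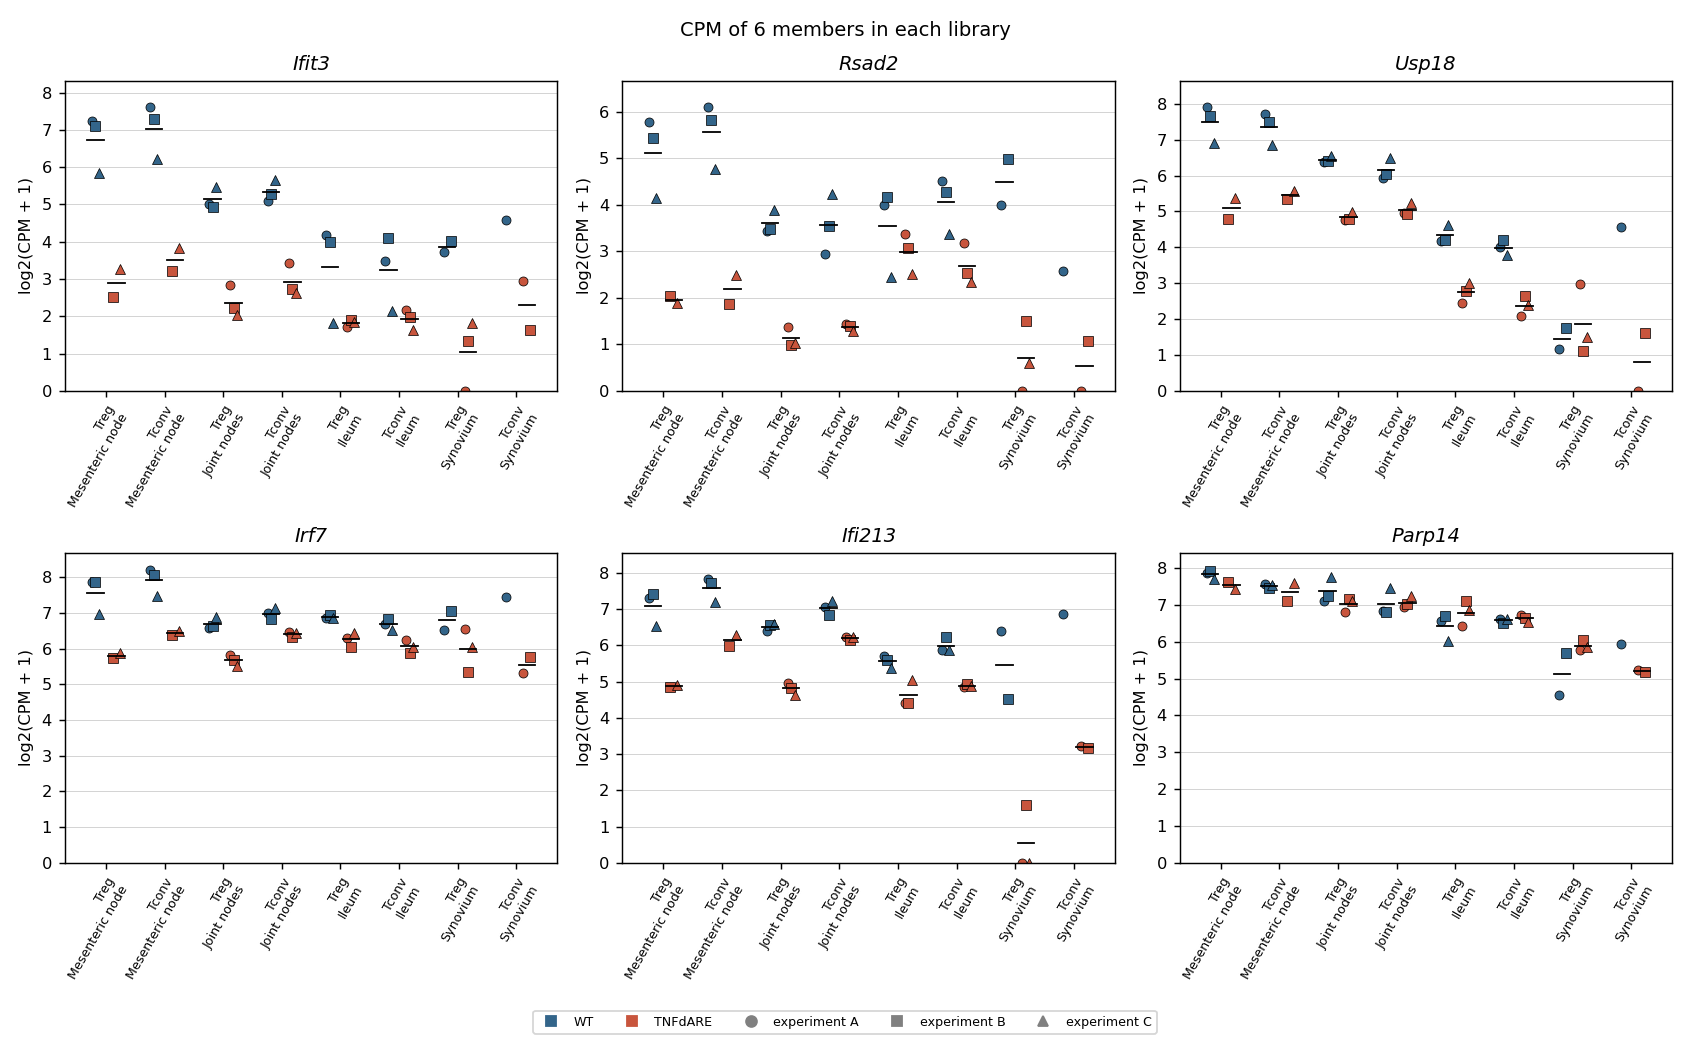
Level of 6 members as log2(CPM + 1) (y axis) in each library, by cell type and site (x axis), with WT in blue, TNFdARE in red and a line at each group mean. For Ifit3, Rsad2, Usp18, Irf7 and Ifi213 the node libraries of the 2 genotypes separate, whereas those of Parp14 lie close together.

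Whether the change differed between cell types or nodes was tested directly. In the joint nodes 2 members fell more in Treg than in Tconv, among 0.449% of all genes that differed either way. For Ifi213 the difference of the log2 fold changes was -0.90 ± 0.14 (adjusted p = 0.01): the gene fell from 83.1, 93.3 and 95.1 to 30.4, 27.3 and 23.8 CPM in Treg and from 131, 114 and 148 to 73.9, 69.8 and 74.8 CPM in Tconv. Ifit2 differed by -0.59 ± 0.11 (adjusted p = 0.036), from 73.3, 73.4 and 73.04 to 36.7, 42.7 and 36.3 CPM in Treg and from 102, 99.5 and 112 to 75.3, 83.7 and 87.7 CPM in Tconv. The Ifit2 call was lost in 10 of 12 fits that left out 1 library, with adjusted p from 0.056 to 0.16, the exceptions being those without WT Tconv C and without TNFdARE Treg B. The Ifi213 call was lost without TNFdARE Treg B (adjusted p = 0.051). Both calls were lost with all 42 libraries in 1 fit (adjusted p = 1 for each). The Ifit2 call was also lost with RLE factors (0.056) or a term for the sample-sheet pass (0.081). That term set sample numbers up to 32 against those from 33 to 44, a split made here from the numbers alone. With the experiment as a block, 4 members differed. At an unadjusted p under 0.05, 15 members differed, all with the lower value in Treg. No share of all genes was counted at an unadjusted p, here or in the other paragraphs, so such counts have no background. The shares of all genes given beside them are those by edgeR at the adjusted threshold. In the mesenteric node 0 members differed between the cell types by edgeR, 6 at an unadjusted p under 0.05 and 1 by DESeq2, among 0.209% of all genes. In the ileum 0 differed by edgeR, 3 unadjusted and 0 by DESeq2, among 0.0188%, and without WT Treg B the count was 1. Between Treg of the mesenteric and joint nodes 0 differed by edgeR, 17 unadjusted and 1 by DESeq2, among 0.351%, and without WT mesenteric Treg C the count was 6.

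In the ileum fewer members passed than in the nodes, but whether the change itself differed between ileum and nodes was not tested. Genes detected in ileal Treg numbered 16702, 20887 and 14712 in WT and 17401, 20636 and 19204 in TNFdARE. Members without counts in WT Treg C included Mx1, Oasl2 and Ifi44. The part of detection in these results was not tested. In ileal Treg 2 of 50 were lower and 0 higher by edgeR, against 0.245% of all genes lower and 0.484% higher, with a median of -0.37 beside 0.00 over all genes. Usp18 measured 17.2, 17.4 and 23.7 CPM in WT and 4.43, 5.94 and 7.07 CPM in TNFdARE (log2 fold change -1.77 ± 0.31, adjusted p = 0.027). Ifi214 measured 11.8, 18.03 and 19.4 CPM in WT and 4.43, 6.97 and 3.75 CPM in TNFdARE (log2 fold change -1.73 ± 0.34, adjusted p = 0.046). Neither overlapped between genotypes. The Usp18 call was lost when any 1 TNFdARE library, WT A or WT C was left out (adjusted p from 0.05 to 0.13), and the Ifi214 call was kept only without WT B (0.058 to 0.15 in the others). Accordingly the count was 0 without TNFdARE A, WT A or WT C, 1 without TNFdARE B, and 7, of which 1 was higher, without WT B. At an unadjusted p under 0.05, 14 members were lower and 1 higher, and DESeq2 gave 10 lower, whereas edgeR gave 0 with no filter on low counts, with the sample-sheet pass as a term or with only these 2 groups in the fit.

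In ileal Tconv 6 of 50 members were lower and 0 higher, against 0.138% of all genes lower and 1.17% higher, with a median of -0.49 beside -0.02. Ifi209 measured 177, 172 and 152 CPM in WT and 104, 95.3 and 81.2 CPM in TNFdARE (log2 fold change -0.82 ± 0.11, adjusted p = 0.0039). Usp18 measured 15.1, 17.3 and 12.8 CPM in WT and 3.28, 5.26 and 4.22 CPM in TNFdARE (log2 fold change -1.80 ± 0.31, adjusted p = 0.015). Ifi213 measured 57.2, 73.9 and 57.4 CPM in WT and 27.7, 29.4 and 28.4 CPM in TNFdARE (log2 fold change -1.12 ± 0.19, adjusted p = 0.016). All WT libraries of these genes were above all TNFdARE libraries. Rtp4 measured 36.3, 45.3 and 25.9 CPM in WT and 10.98, 13.4 and 11.7 CPM in TNFdARE (log2 fold change -1.56 ± 0.27, adjusted p = 0.018). Ifi214 was at 21.8, 22.6 and 14.4 CPM in WT and 4.23, 6.28 and 5.796 CPM in TNFdARE (log2 fold change -1.83 ± 0.34, adjusted p = 0.024). Irf7, the factor that amplifies interferon production, was at 103, 113 and 90.8 CPM in WT and 75.1, 57.95 and 65.2 CPM in TNFdARE (log2 fold change -0.62 ± 0.13, adjusted p = 0.048). These also did not overlap. Of the 6, Ifi209 kept its call in every fit without 1 library. Ifi213, Ifi214 and Irf7 lost it in all 6 such fits, Rtp4 in the 5 other than without WT C, and Usp18 in the 5 other than without TNFdARE B, and each of the 6 fits called 1 or 2 members. At an unadjusted p under 0.05, 22 members were lower and 1 higher, DESeq2 gave 10 lower and 1 higher, and edgeR gave 10 with only these 2 groups in the fit.

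In synovial Treg 0 of 48 members passed by edgeR, 10 had an unadjusted p under 0.05 (9 lower and 1 higher) and DESeq2 called 5, against 0.0445% of all genes lower and 0.111% higher by edgeR. With all 42 libraries in 1 fit, 22 of 51 members were called, 20 lower and 2 higher, beside 3512 of 22243 genes. The median was -0.57, beside 0.12 over all genes. Ifi214 measured 52.9 and 5.798 CPM in WT (A and B) and 0, 0.158 and 0.0461 CPM in TNFdARE (adjusted p = 0.1). Ifi213 measured 83.3 and 21.8 and 0, 2.05 and 0 CPM (adjusted p = 0.33). Zbp1 measured 69.9 and 101 and 34.2, 33.4 and 42.4 CPM (adjusted p = 0.23). For these 3 genes, chosen after their values were seen, the genotypes did not overlap, yet the 2 WT libraries of Ifi214 and Ifi213 lay far apart. Samd9l went the other way without overlap, at 140.9 and 114.7 CPM in WT and 159.9, 203.4 and 269.5 CPM in TNFdARE. The share of all genes without overlap between these groups was not counted. Mx1 had no counts in TNFdARE and measured 1.447 and 0.575 CPM in WT. Ifit3b had none in WT and measured 1.859, 0.2103 and 0 CPM in TNFdARE, where library A held 42 counts, B 4 and C 0. Neither passed the test, and Oasl1 had no counts in either genotype. Without WT B, 4 members passed, 3 higher and 1 lower. Stromal, myeloid and B-cell markers differed with genotype here. The 6 stromal genes summed to 13500 to 16350 CPM in WT and 1481 to 6366 CPM in TNFdARE Treg, with Dcn, a matrix proteoglycan, at 5574 and 3824 CPM in WT and 844, 608 and 412 CPM in TNFdARE (log2 fold change -2.89 ± 0.35, adjusted p = 0.048). The 9 myeloid genes summed to 468 and 795 CPM in WT and 145 to 173 CPM in TNFdARE, with Cst3 lower (log2 fold change -1.77 ± 0.19, adjusted p = 0.034). The B-cell genes summed to 108 and 115 CPM in WT and 19.2 to 40.4 CPM in TNFdARE, and 0 of them passed. The part of these markers in the member values was not tested. Synovial Tconv had 1 WT library and no test: Ifit3 measured 22.8 CPM in WT and 6.71 and 2.11 CPM in TNFdARE, and Ifi213 115 and 8.35 and 7.94 CPM. Other members were higher in both TNFdARE libraries, among them Isg20 (8.83 CPM in WT, 17.3 and 30.2 CPM in TNFdARE) and Slfn5 (25.7, and 49.5 and 49.8 CPM). These 4 genes were chosen after their values were seen. That WT library stood apart in its CD8 and NK markers, which summed to 1177 CPM there, 41.97 and 101.7 CPM in TNFdARE synovial Tconv and at most 70.2 CPM in every other library, and the part of such cells in its values was not tested.

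Markers of other cell types and states moved with genotype in the nodes as well, and their part in the member values was not tested. In mesenteric Treg the 9 myeloid markers summed to 54.7 to 71.5 CPM in WT and 87.3 to 89.8 CPM in TNFdARE, with Cst3 higher (log2 fold change 0.51, adjusted p = 0.026). In joint-node Treg they summed to 41.7 to 54.1 CPM in WT and 61.1 to 77.8 CPM in TNFdARE, again with Cst3 higher (0.40, adjusted p = 0.031). Plasmacytoid dendritic cells are strong producers of type I interferon. Their 8 markers summed to 83.3 to 89.5 CPM in WT and 58.5 to 66.7 CPM in TNFdARE mesenteric Treg, of which Pacsin1 alone made 80.4, 78.4 and 71.4 CPM in WT and 55.95 and 47.2 CPM in TNFdARE. Siglech, the defining marker, was at most 0.24 CPM in those Treg libraries, and Klk1 and Cox6a2 were at 0. In joint-node Treg the 8 markers summed to 71.22 to 76.01 CPM in WT and 72.79 to 81.52 CPM in TNFdARE. In mesenteric Tconv they summed to 84.85 to 93.18 CPM in WT and 63.61 to 75.12 CPM in TNFdARE. The sums in joint-node Tconv were 85.97 to 94.87 CPM in WT and 74.9 to 94.51 CPM in TNFdARE. In TNFdARE Tconv 6 of 6 Treg markers were higher in both nodes, with sums of 166 to 216 CPM in WT and 284 to 415 CPM in TNFdARE in the mesenteric node and 86.8 to 101 and 200 to 238 CPM in the joint nodes. In the ileum 4 of 6 were higher, with 2207 to 2364 and 3796 to 4315 CPM. The shares of all genes higher in TNFdARE Tconv were 1.79% in the mesenteric node, 2.29% in the joint nodes and 1.17% in the ileum.

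Between WT Treg and WT Tconv, members passed in both directions in the ileum and in both nodes, and the set as a whole was not tested. In the ileum 6 of 50 members were higher and 2 lower in Treg, against 4.35% and 3.18% of all genes. Slfn1 measured 39.8, 50.05 and 32.3 CPM in Treg and 93.1, 149 and 114 CPM in Tconv (log2 fold change -1.52 ± 0.20, adjusted p = 0.00087). Ifi208 measured 43.3, 53.5 and 44.4 CPM in Treg and 95.05, 136 and 98.2 CPM in Tconv (log2 fold change -1.19 ± 0.24, adjusted p = 0.011). Both were lower in Treg with no overlap. Samd9l, a restriction factor of growth and viral replication, measured 207, 234 and 128 CPM in Treg and 102, 92.2 and 88.9 CPM in Tconv (log2 fold change 1.03 ± 0.20, adjusted p = 0.011). Ifi27l2a measured 258, 216 and 330 CPM in Treg and 147, 169.8 and 144 CPM in Tconv (log2 fold change 0.84 ± 0.18, adjusted p = 0.014). Isg20, an RNA exonuclease, measured 52.6, 42.8 and 58.5 CPM in Treg and 31.9, 28.98 and 18.7 CPM in Tconv (log2 fold change 0.99 ± 0.21, adjusted p = 0.015). Eif2ak2, Ifi35 and Dhx58 were the other members higher in Treg. Slfn1 apart, each of these 5 named calls depended on single libraries: Ifi208 was lost without Tconv B (adjusted p = 0.055), Samd9l without Tconv B (0.053) or C (0.059), Ifi27l2a without Tconv A (0.067) or C (0.074) and Isg20 without Treg A (0.052) or Tconv C (0.066). The count was 4 without Tconv A or Treg A and 3 without Tconv B or C.

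In the mesenteric node 2 members were higher and 6 lower in WT Treg, which is 4% and 12% of the members, below the 15.7% and 13.7% of all genes. Ifi27l2a measured 512, 514 and 386 CPM in Treg and 317, 316 and 277 CPM in Tconv (log2 fold change 0.60 ± 0.11, adjusted p = 0.0018). Ifi203 measured 482, 503 and 451 CPM in Treg and 368, 331 and 311 CPM in Tconv (log2 fold change 0.47 ± 0.10, adjusted p = 0.0037). These were the 2 higher members. Ifi208 measured 276, 261 and 167 CPM in Treg and 486, 449 and 378 CPM in Tconv (log2 fold change -0.93 ± 0.18, adjusted p = 0.0019). Slfn1 measured 338, 365 and 317 CPM in Treg and 486, 509 and 435 CPM in Tconv (log2 fold change -0.52 ± 0.11, adjusted p = 0.0031). Sp100, a nuclear body protein, measured 949.6, 977 and 812 CPM in Treg and 1182, 1173 and 1078 CPM in Tconv (log2 fold change -0.36 ± 0.09, adjusted p = 0.0093). Ifit2, Ifi204 and Oas2 were also lower in Treg. Without Tconv C the count was 13, and with the experiment as a block it was 17, of which 5 were higher and 12 lower. It was 31 with no filter on low counts and 1 with all 42 libraries in 1 fit. The share of all genes called in each of these other fits is not given, so these counts have no background. In the joint nodes 11 members were higher and 11 lower, 22% each, against 17% and 14.7% of all genes. With all 42 libraries in 1 fit the count in the joint nodes was 3. Ifi208 measured 148, 141 and 155 CPM in Treg and 330, 316 and 402 CPM in Tconv (log2 fold change -1.21 ± 0.10, adjusted p = 4.8e-07). Slfn1 measured 261, 249 and 308 CPM in Treg and 387, 413 and 462 CPM in Tconv (log2 fold change -0.60 ± 0.09, adjusted p = 7.9e-05). Both were again lower in Treg. Isg20 measured 39.3, 38.7 and 41.4 CPM in Treg and 21.5, 18.8 and 26.9 CPM in Tconv (log2 fold change 0.86 ± 0.10, adjusted p = 1.1e-05). Stat2 measured 134, 139.8 and 162 CPM in Treg and 89.1, 95.05 and 112 CPM in Tconv (log2 fold change 0.58 ± 0.08, adjusted p = 5.9e-05). Ifi27l2a measured 248, 245 and 287 CPM in Treg and 142, 158 and 170.3 CPM in Tconv (log2 fold change 0.75 ± 0.11, adjusted p = 8.7e-05). Thus Ifi27l2a was higher, and Slfn1 and Ifi208 lower, in Treg of the ileum and of both nodes. In the TNFdARE synovium 0 of 48 members differed between Treg and Tconv by edgeR, 5 did at an unadjusted p under 0.05 and 2 by DESeq2, and the share of all genes called was 0%. The Foxp3 levels of these Tconv libraries are given above, and their part in this comparison was not tested.

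Among WT Treg, the members were higher in the mesenteric node than in the ileum or the joint nodes. These comparisons share WT libraries with each other and with the comparisons of the genotypes. In the ileum 36 of 50 members were lower than in the mesenteric node and 0 higher, against 7.5% of all genes lower and 10.1% higher, with a median of -1.26 beside 0.03. Slfn1 measured 39.8, 50.05 and 32.3 CPM in the ileum and 338, 365 and 317 CPM in the mesenteric node (log2 fold change -3.06 ± 0.17, adjusted p = 8.6e-06). Usp18 measured 17.2, 17.4 and 23.7 CPM in the ileum and 239, 199 and 119.9 CPM in the mesenteric node (log2 fold change -3.24 ± 0.31, adjusted p = 0.00011). The ileal libraries of both were far below every mesenteric library. Ifi209 measured 206, 183 and 160.4 CPM in the ileum and 554, 528 and 393 CPM in the mesenteric node (log2 fold change -1.42 ± 0.14, adjusted p = 0.00015). Ifi203 measured 246, 243 and 216 CPM in the ileum and 482, 503 and 451 CPM in the mesenteric node (log2 fold change -1.02 ± 0.10, adjusted p = 0.00015). Sp100 measured 403, 443 and 375 CPM in the ileum and 949.6, 977 and 812 CPM in the mesenteric node (log2 fold change -1.16 ± 0.12, adjusted p = 0.00018). No library overlapped between the sites in these 3 genes either. The count of 0 higher was 0 at an unadjusted p under 0.05 and 0 by DESeq2 as well. Markers of other cell types also differed between these sites: the plasma-cell genes summed to 848 to 2382 CPM in the ileum and 203 to 224 CPM in the mesenteric node, the stromal genes to 15.5 to 901 and 0.99 to 1.98 CPM, and the epithelial genes to 42.5 to 487 and 20.1 to 24.4 CPM. Of these lists 4, 3 and 3 genes were higher in the ileum, as were the myeloid genes Cd14 and Xcr1, and the T-cell genes Cd3d and Cd3e were lower. Their part in the member values was not tested.

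Between the 2 kinds of node, 33 of 50 members were higher in WT Treg of the mesenteric node and 0 lower, against 2.48% of all genes higher and 0.855% lower, with a median of 0.81 beside -0.01. Phf11b, a zinc finger protein, measured 151, 128 and 96.3 CPM in the mesenteric node and 66.4, 57.7 and 58.96 CPM in the joint nodes (log2 fold change 1.03 ± 0.13, adjusted p = 0.00055). Isg15, the ubiquitin-like modifier, measured 78.5, 67.5 and 40.1 CPM in the mesenteric node and 15.8, 12.7 and 20.7 CPM in the joint nodes (log2 fold change 1.91 ± 0.26, adjusted p = 0.00067). Ifi27l2a measured 512, 514 and 386 CPM in the mesenteric node and 248, 245 and 287 CPM in the joint nodes (log2 fold change 0.85 ± 0.12, adjusted p = 0.00079). Each was higher in all mesenteric libraries than in all joint-node libraries. Ifih1 (MDA5), a sensor of long double-stranded RNA, measured 72.1, 65.7 and 52.4 CPM in the mesenteric node and 29.8, 34.2 and 37.2 CPM in the joint nodes (log2 fold change 0.91 ± 0.13, adjusted p = 0.001). Trim30a measured 235, 220.5 and 179 CPM in the mesenteric node and 129, 133 and 138 CPM in the joint nodes (log2 fold change 0.66 ± 0.09, adjusted p = 0.0011). Phf11b, which passed in no comparison of the genotypes in the nodes, thus had the smallest adjusted p between the nodes. Without joint-node WT B the count was 18, and with all 42 libraries in 1 fit it was 4. The count of 0 lower was 0 unadjusted and 0 by DESeq2 as well.

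In WT synovial Treg 20 of 50 members were lower than in joint-node Treg and 1 higher, against 12% of all genes lower and 12.8% higher, with a median of -1.10 beside -0.09. Ifi206 measured 20 and 31.2 CPM in the synovium and 179.9, 156 and 184 CPM in the joint nodes (log2 fold change -2.76 ± 0.32, adjusted p = 0.00036). Usp18 measured 1.25 and 2.35 CPM in the synovium and 82.6, 83.8 and 91.5 CPM in the joint nodes (log2 fold change -5.58 ± 0.79, adjusted p = 0.001). Ifi209 measured 124 and 115 CPM in the synovium and 367, 340.5 and 398 CPM in the joint nodes (log2 fold change -1.62 ± 0.24, adjusted p = 0.0013). All synovial libraries were below all node libraries. Parp14 measured 22.6 and 50.5 CPM in the synovium and 137, 151 and 214 CPM in the joint nodes (log2 fold change -2.21 ± 0.33, adjusted p = 0.0013). Slfn1 measured 6.78 and 33.2 CPM in the synovium and 261, 249 and 308 CPM in the joint nodes (log2 fold change -3.78 ± 0.58, adjusted p = 0.0016). Oas2, Ifit3b, Oasl1 and Ifi44 had no counts in the WT synovium and means of 14.7, 7.84, 6.96 and 4.04 CPM in the joint nodes. No fold is given, because counts of 0 were unstable in the synovium. Cmpk2 had 0 counts in synovial WT library A and 341 in B, and Trim30d 0 and 413. That library A had the fewest genes detected of all libraries, 13341. The higher member was Ifi204, at 16.2 and 6.37 CPM in the synovium and 0.0838, 0 and 0.883 CPM in the joint nodes (log2 fold change 5.12 ± 1.38, adjusted p = 0.025), and its call was lost without synovial WT A or joint-node WT A. In the synovium 6 of 6 stromal markers were higher and 5 of 6 T-cell markers lower than in the joint nodes. The myeloid markers summed to 468.4 and 794.6 CPM in the synovium and 41.66 to 54.06 CPM in the joint nodes. The B-cell markers summed to 108.0 and 115.3 CPM and to 19.32 to 21.19 CPM. The part of all these markers in the member values was not tested.

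The ligands themselves were close to absent from these cells: the 20 type I and III interferon genes summed to at most 1.96 CPM in any library, and 0 were tested in the nodes or the ileum. Ifnar1, Ifnar2 and Irf1 passed in no comparison of the genotypes. In mesenteric Treg Ifnar1 measured 231, 270 and 230.3 CPM in WT and 206 and 208 CPM in TNFdARE (log2 fold change -0.18 ± 0.09, adjusted p = 0.32). Ifnar2 measured 116, 117 and 110.1 CPM in WT and 100 and 112 CPM in TNFdARE (log2 fold change -0.05 ± 0.08, adjusted p = 0.8). These values show receptor transcripts in every library of that group. The feedback inhibitor Socs1 was lower in Treg of the mesenteric node (log2 fold change -0.39, adjusted p = 0.019) and higher in mesenteric Tconv (0.45, adjusted p = 0.014).

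Of 19 genes that sense nucleic acid or induce interferons, 17 were tested in the nodes. Tlr7, the endosomal receptor for single-stranded RNA, was lower in all 4 node comparisons. It measured 48.2, 50.5 and 29.7 CPM in WT and 8.43 and 13.4 CPM in TNFdARE (log2 fold change -1.92 ± 0.29, adjusted p = 0.0024) in mesenteric Treg. In joint-node Treg it measured 30.7, 27.7 and 35.1 CPM in WT and 16.1, 12.7 and 15.03 CPM in TNFdARE (log2 fold change -1.10 ± 0.14, adjusted p = 0.00028). In mesenteric Tconv it measured 13.8, 17.1 and 10.5 CPM in WT and 1.99 and 2.71 CPM in TNFdARE (log2 fold change -2.58 ± 0.33, adjusted p = 0.0021). No library overlapped between genotypes in these 3 comparisons. Irf5, a transcription factor downstream of Tlr7, went the other way. It measured 32.4, 30.1 and 30.02 CPM in WT and 67.8 and 54 CPM in TNFdARE (log2 fold change 1.03 ± 0.16, adjusted p = 0.0024) in mesenteric Treg. In joint-node Treg it measured 30.7, 28.4 and 33.5 CPM in WT and 84.2, 61.4 and 63.6 CPM in TNFdARE (log2 fold change 1.17 ± 0.14, adjusted p = 0.00021). The list counts in Treg were 3 lower and 1 higher in the mesenteric node and 4 lower and 1 higher in the joint nodes. Of all genes, 1.84% were lower and 3.84% higher in the mesenteric node, and 2.34% and 3.36% in the joint nodes. Besides Tlr7 the lower genes included the RNA editor Adar and the sensor Ddx58 (RIG-I) in both, with log2 fold changes of -0.57 and -0.46 in the mesenteric node.

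**Figure D4:**
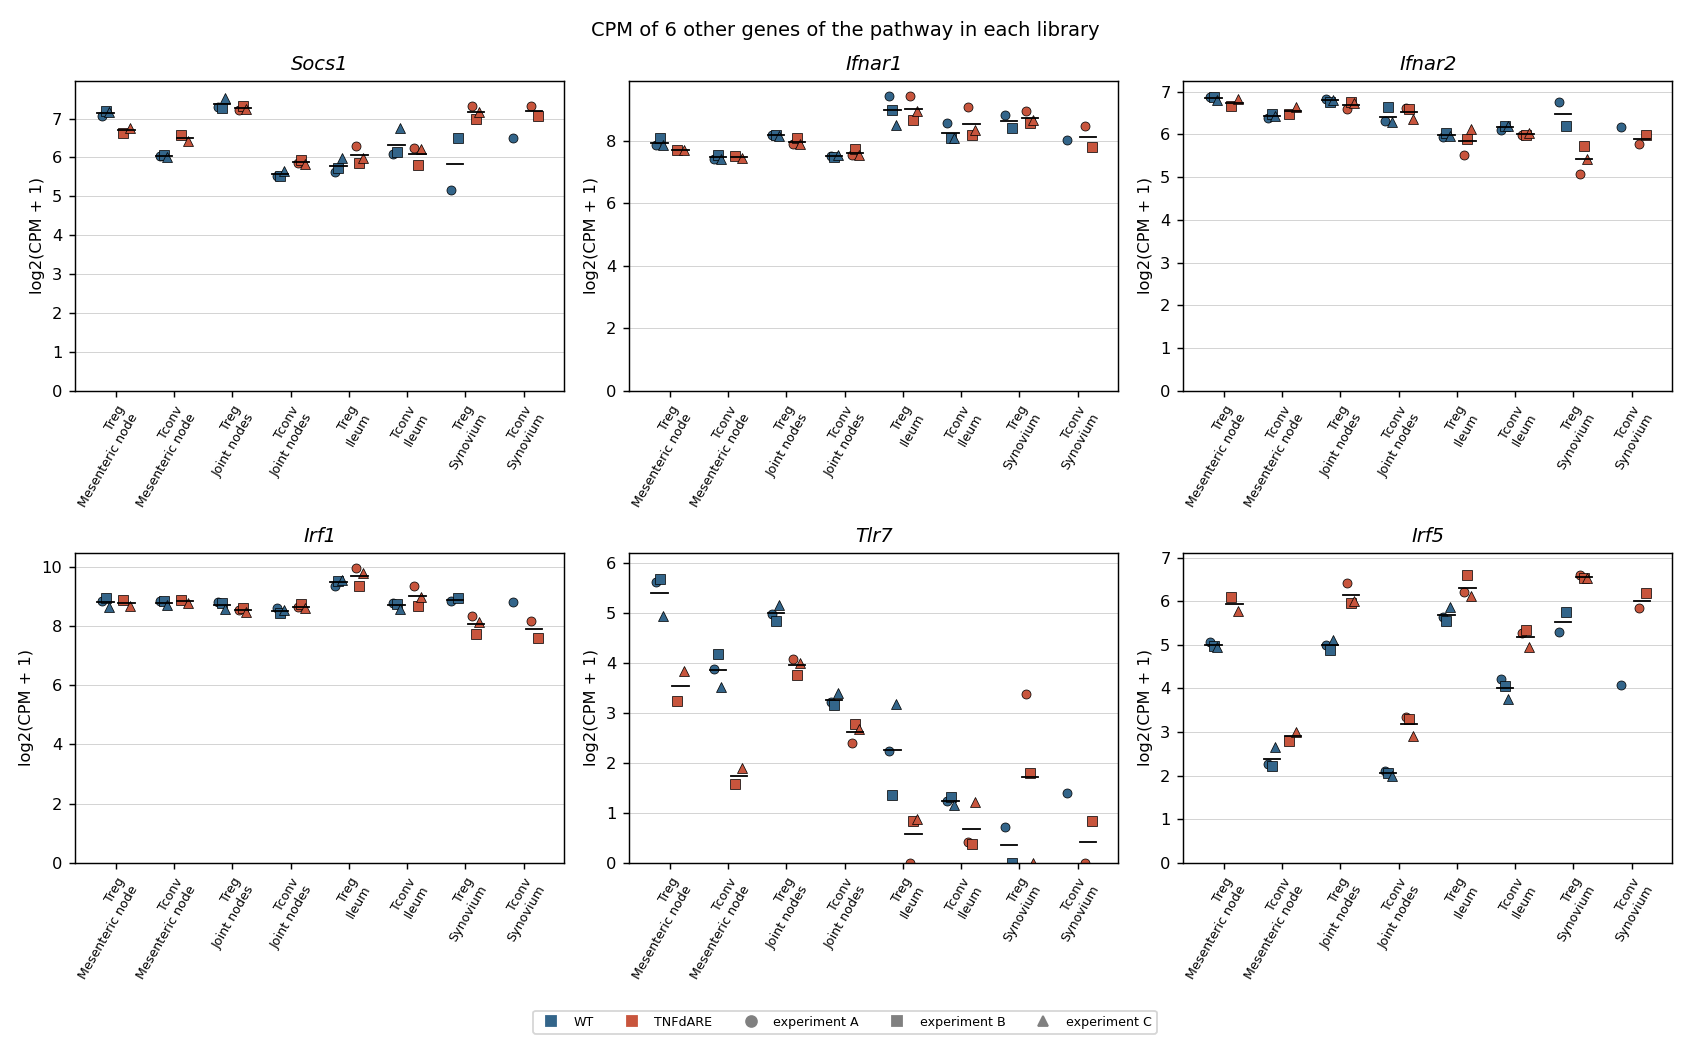
Level of 6 other genes of the pathway as log2(CPM + 1) (y axis) in each library, by cell type and site (x axis), with WT in blue, TNFdARE in red and a line at each group mean. Ifnar1, Ifnar2 and Irf1 show no call by genotype, Socs1 is lower in TNFdARE Treg and higher in TNFdARE Tconv of the mesenteric node, and in the nodes Tlr7 is lower in TNFdARE cells.

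The members did not all follow one pattern over the 16 group means. The correlation of a member with the mean of the others, a description over groups that differ in site, depth and marker content, was highest for Xaf1 (r = 0.97) and Ifit1 (0.96) and lowest for Ifi204 (-0.56) and Isg20 (0.33). The range of log2 CPM over the groups was widest for Oas2 (9.56), Ifi213 (9.52) and Ifi214 (9.48), each of which had values near 0 in TNFdARE synovial Treg. It was 1.28 for both Ifi35 and Helz2. Outside the list, the genes whose group means were most like the score among 8732 genes were Rnf213 (r = 0.96), Trim12a (0.94), Tmc6 (0.93), H2-T24 (0.93) and Atf7ip (0.92).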

How the data were processed

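RNA-seq was made from sorted Treg and Tconv of 4 sites and 2 genotypes (42 libraries, 16 groups). Per the labels, libraries were made by a full-length SMART-Seq protocol from a low or a higher amount of RNA, and the sources used here do not tie an amount to a library. Per the submitters' processing notes, cutadapt 1.15, Bowtie2 2.3.3.1 and GRCm38 were used. The authors deposited raw read counts per gene (18261064 to 30301202 per library), which were used for all results, and an FPKM table of 18964 genes, deposited by the authors, that holds 50 members and was not tested.

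CPM were computed with TMM library sizes over all 42 libraries (factors 0.894 to 1.091), and the score is the mean log2 CPM (prior count 2). Each comparison was fitted per site in edgeR 4.0.16 (R 4.3.3) by the quasi-likelihood test with 1 mean per group and filterByExpr, Benjamini-Hochberg adjusted over all genes tested, at a threshold of 0.05. Values after ± beside a log2 fold change are standard errors. For interactions and comparisons of sites the groups concerned entered 1 fit. DESeq2 1.42.0 and the other settings are in the closing section. The steps were tested on simulated data.

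Values in every library are given for up to 8 members per comparison of the genotypes and 5 per other comparison with the smallest adjusted p among those that passed, plus members passing in the opposite direction. Genes that a sentence adds beyond this rule, such as Ifit3 in mesenteric Treg and Parp14, were chosen after their values were seen. Up to 4 genes are named per pathway list, and 1 gene of the lists is not reported here. The members and lists were chosen with earlier results of these data known. Of 18 pairs of libraries with the same experiment letter, 14 had deviations correlated above 0.1 (-0.013 to 0.407, median 0.21). The experiment was not used as a block in the main results, and the libraries of an experiment are said by the labels to share it. No pair of libraries was identical.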

Additional observations from a re-analysis of the deposited data

Results flagged for a closer look

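The decrease of Ifi213 and of Ifit2 in TNFdARE joint nodes was larger in Treg than in Tconv, by a test of the difference itself. The difference of the log2 fold changes was -0.90 for Ifi213 (adjusted p = 0.01) and -0.59 for Ifit2 (adjusted p = 0.036). The Ifi213 call was lost without TNFdARE Treg B and the Ifit2 call in 10 of 12 fits without 1 library. With all 42 libraries in 1 fit both calls were lost (adjusted p = 1), and with RLE factors or the sample-sheet pass as a term only that of Ifi213 held (adjusted p = 0.014 and 0.031).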

How the results depend on the processing

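Counts are members called of those tested. The share of all genes called under an alternative setting is not given, here or above, except for synovial Treg with all 42 libraries in 1 fit. The other counts under alternative settings thus have no background. No alternative reversed the direction of a named call. The order of the genotypes in the score held in all 7 comparisons with a prior count of 0.5, with total counts, with log2(FPKM + 1), and over only the members whose log2 CPM averaged 1 or more. On the FPKM scale the difference shrank to -0.79 in joint-node Treg and -0.57 in synovial Treg. The cause of each change in count below was not tested.

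With all 42 libraries in 1 fit the count became 19 in mesenteric Treg, 6 in joint-node Treg, 22 in synovial Treg, 3 in ileal Tconv, 9 in mesenteric Tconv and 2 in joint-node Tconv by genotype, 1 in mesenteric, 3 in joint-node and 6 in synovial cells by cell type, 4 between WT Treg of the nodes, and 0 for the difference between cell types in the joint nodes. DESeq2 gave 10 in ileal Treg, 11 in ileal Tconv and 5 in synovial Treg by genotype, 13 in the ileum and 2 in the synovium by cell type, and 1, 5 and 1 for the differences between cell types in the mesenteric and joint nodes and between Treg of the nodes. With no filter the counts were 0 in ileal and 1 in synovial Treg, 31 by cell type in the mesenteric node, and 7, 5 and 14 for those differences. RLE factors gave 1 for the difference in the joint nodes. With the sample-sheet pass as a term, which could not be fitted in the mesenteric node, the counts were 0 in ileal Treg, 3 by cell type in the ileum and 1 for the difference in the joint nodes. With only the 2 groups compared they were 0 in ileal Treg, 10 in ileal Tconv and 3 by cell type in the ileum.

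With the experiment letter as a replicate block the count was 17 by cell type in the WT mesenteric node and 4 for the difference between cell types in the joint nodes, and the pairing moved no other count by over 1.5 times and ended none of 72 named calls. Settings added after seeing the data gave 15 in joint-node Tconv without both libraries with the most genes detected and 0 in ileal Treg without experiment A.

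Leaving out 1 library at a time gave 0 to 7 in ileal, 19 to 41 in mesenteric, 30 to 39 in joint-node and 0 to 4 in synovial Treg by genotype, and 1 to 2, 13 to 41 and 20 to 24 in ileal, mesenteric and joint-node Tconv. By cell type it gave 3 to 12, 6 to 13 and 15 to 23 in the ileum and the 2 nodes. Between WT sites it gave 25 to 36 (ileum and mesenteric node), 15 to 25 (synovium and joint nodes) and 18 to 40 (the nodes). For the differences it gave 0 to 1 in the ileum, 1 to 2 in the joint nodes and 0 to 6 between Treg of the nodes. Groups of 1 or 2 libraries limit the synovium and TNFdARE mesenteric-node comparisons.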

Other observations

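Genes of the interferon gamma side, part of which type I interferons can also induce, passed in both directions in the nodes and as higher members in the ileum. Of all genes, 2.34% were lower and 3.36% higher in joint-node Treg, and 1.84% and 3.84% in mesenteric Treg. In Tconv the shares were 0.574% and 1.79% in the mesenteric node and 0.504% and 2.29% in the joint nodes. In the ileum they were 0.245% and 0.484% in Treg and 0.138% and 1.17% in Tconv. In joint-node Treg 10 of 24 tested were lower in TNFdARE, all of them guanylate-binding proteins, immunity-related GTPases or antigen-presentation genes. Gbp6 (log2 fold change -1.02 ± 0.11, adjusted p = 7.9e-05), Gbp9 (-0.84 ± 0.09, adjusted p = 7.9e-05), Gbp4 (-0.58 ± 0.07, adjusted p = 0.00021) and Iigp1 (-0.88 ± 0.12, adjusted p = 0.00038) had the smallest adjusted p. In mesenteric Treg 4 were lower and 2 higher, Ifngr1 (0.89 ± 0.14, adjusted p = 0.0026) and Gbp3 (0.66 ± 0.13, adjusted p = 0.013). In Tconv of the mesenteric node 4 were lower (Gbp6, Igtp, Irgm1 and Irgm2) and 1, Socs1, was higher. In joint-node Tconv 4 were lower (Gbp6, Igtp, Irgm1 and Iigp1) and 2 higher, Gbp5 (0.56 ± 0.12, adjusted p = 0.024) and Socs1 (0.32 ± 0.08, adjusted p = 0.04). In ileal Treg 2 of 25 were higher, the peptide transporter Tap1 (0.60 ± 0.09, adjusted p = 0.011) and Gbp2 (0.93 ± 0.14, adjusted p = 0.015). In ileal Tconv Gbp3 (1.12 ± 0.14, adjusted p = 0.0023) and Gbp7 (0.71 ± 0.15, adjusted p = 0.043) were higher. Whether the nodes and the ileum differ in these genes was not tested.

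Of 6 feedback genes of NF-kB, the pathway that the tumour necrosis factor receptors activate, 3 were higher in mesenteric Treg, 2 in joint-node Treg, 2 in mesenteric Tconv and 3 in joint-node Tconv. The shares of all genes that were higher were 3.84%, 3.36%, 1.79% and 2.29% in the same order. Nfkb2 was higher in each node comparison, with log2 fold changes of 0.93 ± 0.09, adjusted p = 0.00023 in mesenteric Treg, 0.76 ± 0.08, adjusted p = 8.1e-05 in joint-node Treg, 0.44 ± 0.09, adjusted p = 0.03 in mesenteric Tconv and 1.06 ± 0.08, adjusted p = 3.2e-06 in joint-node Tconv. Markers of cell state also moved with genotype: in mesenteric Treg the tissue-retention integrin Itgae (1.90 ± 0.19, adjusted p = 0.00022) and Il7r (1.74 ± 0.21, adjusted p = 0.00061) were higher, and Lef1 (-0.50 ± 0.08, adjusted p = 0.003) and Satb1 (-0.58 ± 0.09, adjusted p = 0.0034) lower, among 3 higher and 5 lower of 12 genes of the naive and effector state. Of all genes, 3.84% were higher and 1.84% lower in mesenteric Treg. In Tconv Klrg1, a marker of terminal effector cells, was higher in the mesenteric node (3.66 ± 0.55, adjusted p = 0.0041) and in the joint nodes (3.62 ± 0.23, adjusted p = 4.1e-07).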
